A study of Mus musculus with 3 samples.

Results

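Complement is a system of soluble proteins and cell receptors that marks targets for uptake or lysis and attracts leukocytes. 9 of its genes were followed in the immune cells of mouse melanomas, by symbol, out of 55401 genes listed in the count tables: the C1q chains C1qa, C1qb and C1qc, the classical pathway component C4b, the central component C3, the alternative pathway genes Cfb and Cfp, and the anaphylatoxin receptors C3ar1 and C5ar1. All 9 had counts in all 3 libraries, where they made up 0.238%, 0.242% and 0.357% of the counts at 4, 12 and 20 months. The series as a whole concerned age, TREM1 and TREM2 macrophages and the growth of melanoma.

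The mice were 4, 12 or 20 months old, with 7 mice at each age. Each carried a subcutaneous graft of 500000 cells of YUMM1.7, a mouse melanoma line, and the tumours were taken after 18 days. Digested tumours were stained with an AF700-coupled antibody to CD45.2, a marker of blood-derived cells, and live (DAPI-negative) CD45+ cells were sorted into 1 PIP-seq 3' library per age. The labels give no strain, sex or treatment, and do not say whether the mice of an age were pooled. All tumours came from the same line, and no tumour-free tissue or cells outside the sort were analysed here. With 1 library per age there is no replicate and no test of age. Intervals below are 95% intervals for counting error only, and any difference between ages cannot be told apart from a difference between libraries.

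The files held 14393, 14653 and 14684 cells at 4, 12 and 20 months, of which 13530, 13774 and 13803 were retained, with a median of 6726, 7328 and 6863 counts per cell. Cells were placed in classes from marker genes, none of them a complement gene. T-like cells numbered 4810, 6466 and 6003 and NK-like cells 2283, 1985 and 1506. Dendritic-like cells numbered 454, 498 and 515. Myeloid cells were ordered by macrophage markers (such as Adgre1, Ms4a7, Trem2, Apoe and Mrc1) minus monocyte markers (such as Ly6c2, Ccr2, Vcan and F13a1). This gave 858, 1164 and 1957 macrophage-like cells, 2245, 1198 and 1255 monocyte-like cells, and 2061, 1645 and 1727 cells in between. These 3 names are ranges on 1 score: 13.3%, 16.1% and 16.2% of the myeloid cells lay within 0.25 of the macrophage limit and 22.1%, 18.7% and 15.4% within 0.25 of the monocyte limit. The labels give melanoma as the cell type, but summed melanoma markers reached at most 7.66 counts-per-million (CPM) in the T-like, macrophage-like, monocyte-like and dendritic-like cells. Not every marker set its class apart from T-like cells. Ly6c2 stood at 5631, 5489 and 4628 CPM in monocyte-like and 4901, 5440 and 4788 CPM in T-like cells. Gpnmb, on the macrophage list, stood at 2.20, 2.57 and 2.74 CPM in macrophage-like and 2.69, 3.06 and 2.76 CPM in T-like cells. Between 2 and 4 cell barcodes were shared by each pair of libraries.

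In the classical pathway, C1q binds antibody or damaged surfaces, and its proteases then cleave C4 and C2 to form an enzyme that splits C3. In the alternative pathway, factor B joins C3b to form a second such enzyme, which properdin holds together. The fragments C3a and C5a are read by the receptors C3aR and C5aR1 on myeloid cells. The liver makes most circulating complement, but macrophages are the main source of C1q, and C1q expression is a common mark of macrophages in tumours.

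The sequences just before the starts of C1qb and C3 are shown because C1qb was highest at the macrophage end of the marker order, and C3 at the monocyte end. The 3 C1q genes lie side by side on the minus strand of chromosome 4 within 18.7 kb (GENCODE M21, GRCm38): C1qb at chr4:136880129-136886187, C1qc at chr4:136889804-136893065 and C1qa at chr4:136895917-136898803. C3 lies at chr17:57203970-57228136, also on the minus strand. The 250 bases before each RefSeq start follow, 5′ to 3′ on the gene's strand. The RefSeq promoter table used (GRCm38.p6) had an entry for 6 of the 9 members. RefSeq and GENCODE starts differ for some genes. For C1qc, C5ar1 and, by a few bases, C3ar1 the RefSeq start lies inside the GENCODE gene, and these sequences are not shown. Capitals mark the motifs searched on both strands: the ETS core GAGGAA, the MAF half-site TGCTGA, the C/EBP motif TTGCGNAA and the IRF motif (GAAA, 2 free bases, GAAA).
C1qb (chr4:136886201-136886450): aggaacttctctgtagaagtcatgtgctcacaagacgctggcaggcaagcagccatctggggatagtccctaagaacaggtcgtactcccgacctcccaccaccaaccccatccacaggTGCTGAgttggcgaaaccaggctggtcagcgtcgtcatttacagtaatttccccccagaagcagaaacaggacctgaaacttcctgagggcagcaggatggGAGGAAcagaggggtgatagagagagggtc
C3 (chr17:57228137-57228386): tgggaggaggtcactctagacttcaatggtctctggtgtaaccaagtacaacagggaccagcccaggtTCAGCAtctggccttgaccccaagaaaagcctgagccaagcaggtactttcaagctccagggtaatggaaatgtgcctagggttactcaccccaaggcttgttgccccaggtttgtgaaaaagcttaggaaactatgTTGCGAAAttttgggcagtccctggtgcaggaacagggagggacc
The C1qb sequence holds 1 ETS core and 1 MAF half-site. The C3 sequence holds the C/EBP motif, found in 0.670% of 32851 promoter sequences of this length, and a MAF half-site on the other strand. The ETS core occurs in 23.3% of those promoters, the MAF half-site in 16.1% and the IRF motif in 2.98%. Of the other members in the table, the C1qc sequence holds an ETS core, C3ar1 and C5ar1 each hold a MAF half-site, Cfp holds none of the 4 motifs, and no IRF motif occurs in any of the 6. The C5ar1 match lies inside the GENCODE gene. A match of letters is a description and shows no binding.

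C1q levels were highest in the macrophage-like cells. C1qa, C1qb and C1qc encode the 3 chains of the C1q molecule. C1qa reached 4804, 4696 and 5444 CPM in macrophage-like cells at 4, 12 and 20 months, 1886, 1699 and 1953 CPM in cells in between, and 314, 334 and 460 CPM in monocyte-like cells. C1qb stood at 4017, 4047 and 4120 CPM in macrophage-like cells and 373, 388 and 509 CPM in monocyte-like cells. C1qc stood at 1134, 1109 and 1301 CPM and 88.4, 84.5 and 122 CPM in the same classes. The order macrophage-like, in between, monocyte-like held for each chain in each library, with no overlap of the counting intervals. Summed over the 3 chains, C1q made up 9955 (9887 to 10024), 9852 (9800 to 9905) and 10865 (10820 to 10911) CPM of macrophage-like cells, about 1 count in 100. Of all C1qa counts of the retained cells, 43.7%, 56.5% and 66.1% lay in macrophage-like cells and 36.0%, 22.7% and 16.5% in cells in between, so that at 4 months the larger part lay outside the macrophage-like class.

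T-like cells, which are not known to make C1q, were taken as a reference level. Free RNA in the droplets may add such counts, but it was not measured. Their summed C1q was 327, 412 and 556 CPM, and NK-like cells stood at 305, 392 and 537 CPM. This level was higher at each later age, beside a larger share of macrophage-like cells (6.34%, 8.45% and 14.2% of retained cells) and more summed macrophage-marker RNA in the T-like cells (376, 449 and 589 CPM). Monocyte-like cells, at 775, 807 and 1091 CPM, stood above it by 448, 394 and 534 CPM. Dendritic-like cells, at 445, 853 and 807 CPM, stood above it by 118, 441 and 250 CPM, and their summed macrophage markers were 403, 668 and 657 CPM. The part of free RNA in these levels was not tested.

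Within each library, summed C1q was 12.8, 12.2 and 9.96 times as high in macrophage-like as in monocyte-like cells (log2 ratio 3.68, 3.61 and 3.32). After the T-like level was taken from both classes the log2 ratios were 4.42, 4.58 and 4.27. The macrophage-like class is gated on genes that go with C1q, so its distance from the monocyte-like class is a description. At a 2-fold limit, 4 of the 8 members past the level filter were higher in macrophage-like cells in every library (C1qa, C1qb, C1qc and C3ar1), against 7.16%, 4.66% and 5.06% of all genes past the filter. The filter asked for 20 CPM in at least 1 of the 2 classes, and C4b did not pass. 1 member, C3, was lower in every library, against 8.78%, 7.95% and 8.05% of all genes.

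**Figure D1:**
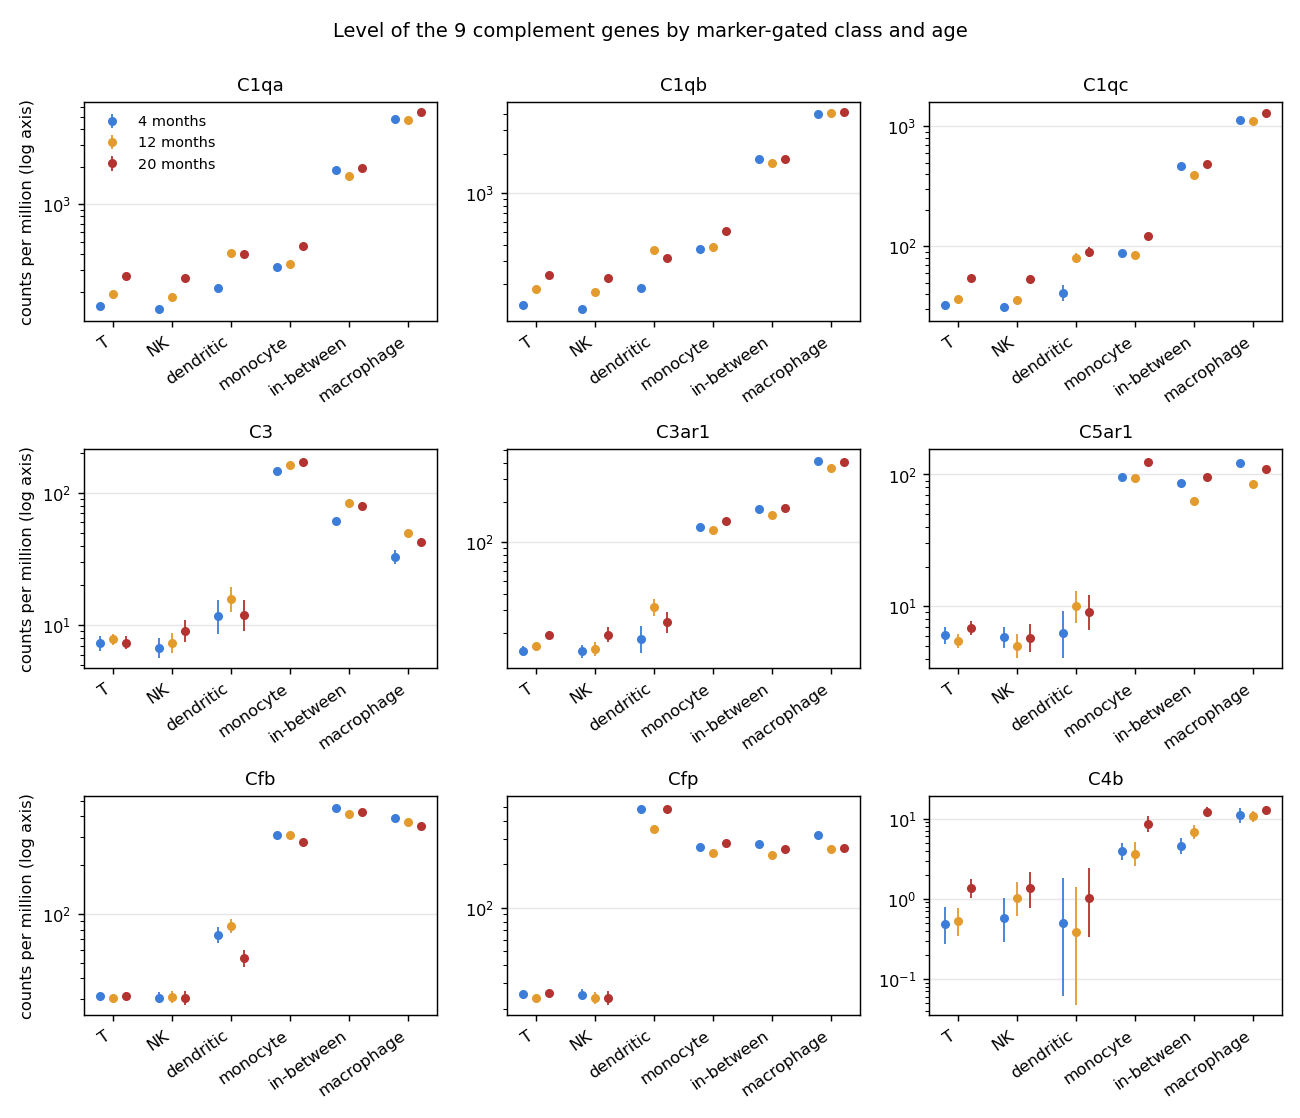
CPM (log axis) of each of the 9 complement genes in the marker-gated classes at 4, 12 and 20 months, 1 point per library and class, with bars for the 95% counting interval. C1qa, C1qb, C1qc and C3ar1 peak in the macrophage-like cells, C3 in the monocyte-like cells and Cfp in the dendritic-like cells, while Cfb and C5ar1 are spread over the myeloid classes.

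Nearly every macrophage-like cell carried C1q. With each cell thinned to 1000 counts, so that depth was equal, 84.5%, 90.3% and 91.8% of macrophage-like cells had a C1qa count, against 19.5%, 21.95% and 28.9% of monocyte-like cells and 14.7%, 17.3% and 23.4% of T-like cells. Without thinning, the shares were 96.04%, 98.5% and 99.0% of macrophage-like and 59.9%, 72.6% and 80.6% of T-like cells, at median depths of 8981, 10415 and 8954 counts against 5332, 6272 and 5921. The monocyte-like share thus lay only a little above that of T-like cells. All 3 chains were seen together at 1000 counts in 52.7%, 55.5% and 59.9% of macrophage-like cells, and none of them in 9.56% (7.67 to 11.7), 4.90% (3.73 to 6.30) and 3.99% (3.16 to 4.95). At 2000 counts per cell the median macrophage-like cell held 19, 20 and 22 C1q counts, with a 10th percentile of 1, 5 and 6 and a 90th percentile of 34, 32 and 35. The ages thus lay close together at the upper end, and the 4-month library had more cells near 0.

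A small group of macrophage-like cells had no C1q count at 2000 counts per cell: 49 of 858, 39 of 1164 and 37 of 1957 at 4, 12 and 20 months. They lay nearer the monocyte side, with a median marker score of 0.67, 0.76 and 0.70 against 1.01, 1.14 and 1.30 in the rest. Cells with nonclassical monocyte markers (Ace, Adgre4, Treml4, Ear2 and Cd36) made up 18.4%, 10.3% and 10.8% of them, from 9, 4 and 4 cells. The share among the rest was 0.989%, 0.0889% and 0.417%.

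The balance of the chains moved along the same order. The number of C1qa counts per C1qb count was 1.196 (1.18 to 1.21), 1.16 (1.15 to 1.17) and 1.32 (1.31 to 1.33) in macrophage-like cells, 1.03, 0.997 and 1.07 in cells in between and 0.840, 0.861 and 0.904 in monocyte-like cells. T-like cells, at 1.09, 1.03 and 1.12, lay between the macrophage-like and monocyte-like values. The ratio compares 1 pair of genes across classes and says nothing of which chain is more abundant, since 3' counts of different genes are not on 1 scale. Across single macrophage-like cells at 2000 counts, C1qa and C1qb had a Pearson correlation of 0.79, 0.74 and 0.72, and C1qa and C1qc of 0.60, 0.53 and 0.52. C1qa and C3 stood at −0.08, −0.05 and −0.09, and C1qa and C3ar1 at 0.13, 0.15 and 0.13. The cells of a library share any free RNA in it, and at these depths the weak values are no finding.

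C4b encodes complement C4, which C1q-activated protease cleaves, and lies at chr17:34728380-34743882. It was rare: 90, 146 and 259 counts in all macrophage-like cells at 4, 12 and 20 months, or 10.98, 10.7 and 12.7 CPM. Cells in between gave 78, 104 and 173 counts (4.54, 6.89 and 12.2 CPM) and monocyte-like cells 66, 36 and 83 counts (3.91, 3.65 and 8.62 CPM). In T-like cells it stood at 0.481, 0.524 and 1.37 CPM. The log2 ratio of 20 to 4 months was 1.14 (0.66 to 1.63) in monocyte-like cells and 1.42 (1.03 to 1.83) in cells in between, while in macrophage-like cells, at 0.21, its interval included 0. That last value was not stable: it was 0.87 by clusters, 0.68 with cells thinned to 2000 counts, 0.41 without the top 10 cells and −0.0390 with a wider margin between the gates. The macrophage clusters also took in cells below the score limit of the gate. The near-identical gene C4a, which may share reads with C4b, gave 10, 19 and 50 counts in macrophage-like cells.

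C3, the component on which all pathways meet, had the reverse order of C1q. It stood at 146, 162 and 172 CPM in monocyte-like cells, 61.4, 84.5 and 80.0 CPM in cells in between, and 32.9 (29.1 to 37.1), 49.8 (46.1 to 53.7) and 42.9 (40.1 to 45.9) CPM in macrophage-like cells. T-like cells had 7.31, 7.83 and 7.41 CPM and dendritic-like cells 11.7, 15.8 and 12.0 CPM. Macrophage-like cells were thus 4.43, 3.25 and 4.00 times lower than monocyte-like cells of the same library, yet above the T-like level. A C3 count was found at 1000 counts per cell in 13.9%, 13.6% and 14.98% of monocyte-like cells, 3.96%, 4.90% and 3.93% of macrophage-like cells and 0.832%, 0.711% and 0.833% of T-like cells. The retained cells held 4353, 4311 and 4383 C3 counts, of which monocyte-like cells gave 56.5%, 37.1% and 37.8% and macrophage-like cells 6.20%, 15.7% and 20.0%. These totals are raw counts, not scaled to the depth of each library. The share of C3 counts from macrophage-like cells was larger at the later ages, beside the larger numbers of those cells.

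Cfb, the factor B protease of the alternative pathway, lies at chr17:34856374-34862518, 112 kb from C4b. It was spread across the myeloid cells and was highest in the cells in between, at 453, 412 and 428 CPM. Macrophage-like cells had 389, 369 and 347 CPM and monocyte-like cells 308, 308 and 277 CPM. Dendritic-like cells, at 74.2, 84.3 and 53.4 CPM, and T-like cells, at 31.1, 30.4 and 31.3 CPM, were far lower. The annotated gene Gm20547 overlaps Cfb on the same strand and had 0.80 to 0.94 counts per Cfb count in the classes, so the division of reads between these genes is uncertain.

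Cfp encodes properdin, which stabilises the alternative pathway enzyme, and lies on chromosome X at 20925454 to 20931555. Its highest level among the 5 main classes was in dendritic-like cells, at 483, 349 and 482 CPM. Macrophage-like cells had 320, 255 and 260 CPM, monocyte-like cells 264, 241 and 280 CPM and T-like cells 25.2, 23.96 and 25.9 CPM. Cells with type 2 dendritic markers such as Cd209a carried most, with 772, 652 and 809 CPM. Type 1 cells (Xcr1 and Clec9a) had 519, 352 and 442 CPM, plasmacytoid cells 165, 116 and 92.2 CPM and mature cells (Fscn1 and Ccr7) 49.3, 83.0 and 115 CPM. The level thus differed more among dendritic groups than among the other myeloid classes, from groups of 52 to 236 cells per library. The log2 ratio of dendritic-like to macrophage-like cells was 0.60, 0.46 and 0.89. At a 2-fold limit against T-like cells, Cfp was higher in dendritic-like cells in every library. It was accompanied by Cfb at 4 months (2 of 5 members past the filter) and by C1qa, C1qc and Cfb at 12 months (4 of 6), and it stood alone at 20 months (1 of 6). The shares of all genes were 19.8%, 21.7% and 21.8%. No member was lower, against 9.84%, 9.29% and 8.35% of all genes.

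C3ar1, the receptor for C3a, followed C1q. It stood at 415, 366 and 405 CPM in macrophage-like cells, 179, 161 and 181 CPM in cells in between and 130, 124 and 145 CPM in monocyte-like cells. Dendritic-like cells, at 18.0, 31.6 and 24.4 CPM, were much closer to the T-like level of 14.6, 15.9 and 19.4 CPM. The log2 ratio of macrophage-like to monocyte-like cells was 1.68, 1.56 and 1.48, a smaller step than that of C1qa (3.94, 3.81 and 3.57).

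C5ar1, the receptor for C5a, differed little between macrophage-like and monocyte-like cells. It stood at 121, 84.0 and 109 CPM in macrophage-like cells and 95.3, 93.4 and 124 CPM in monocyte-like cells, an order that changed between libraries (log2 ratio 0.35, −0.15 and −0.18). Dendritic-like cells, at 6.24, 10.0 and 9.11 CPM, and T-like cells, at 6.03, 5.48 and 6.85 CPM, were both low. The few neutrophil-like cells, 8, 5 and 5 of them, gave 29, 13 and 8 C5ar1 counts. Their level was 664 (445 to 953), 252 (134 to 431) and 134 (57.7 to 264) CPM.

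**Figure D2:**
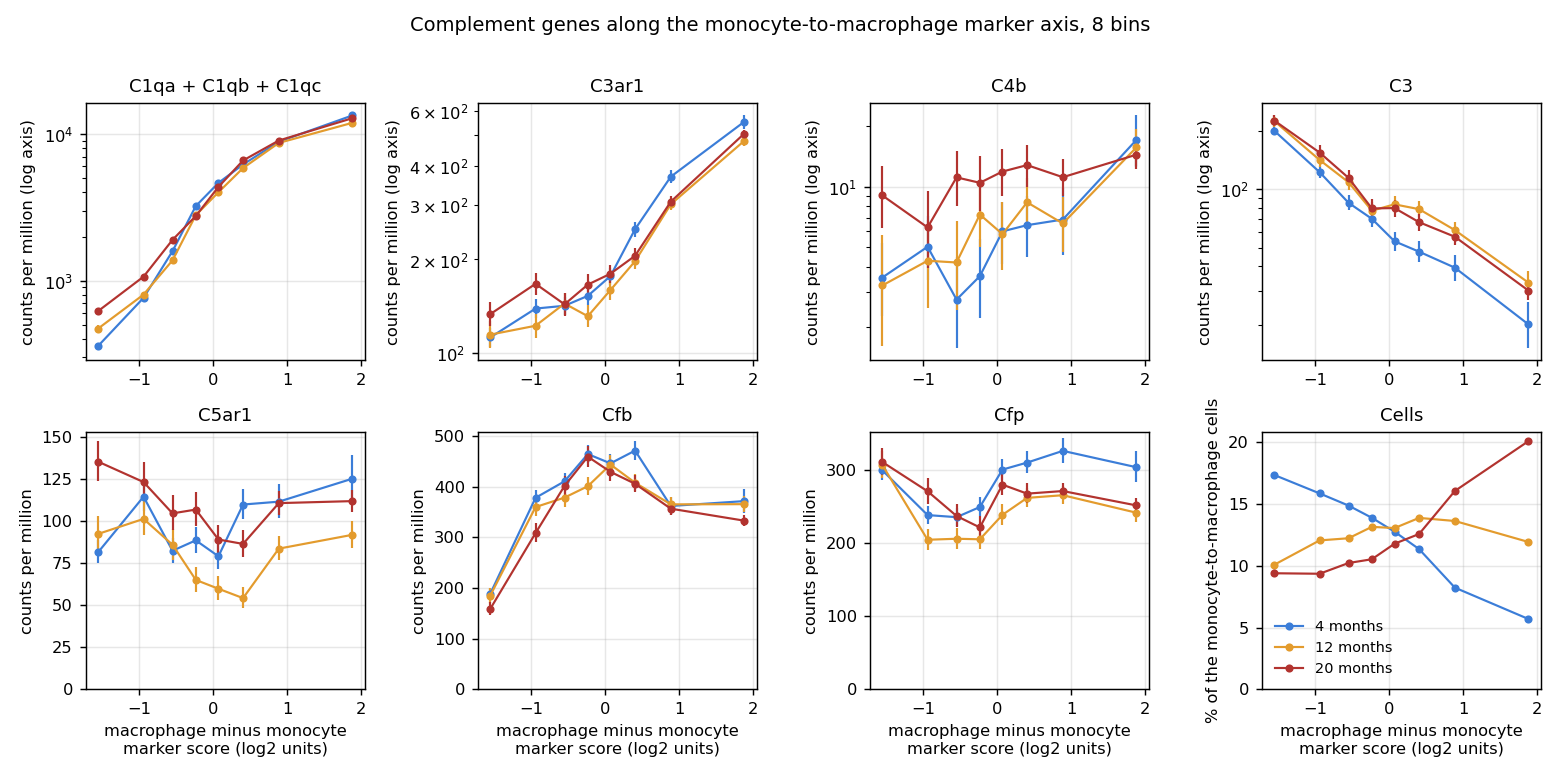
CPM of summed C1q and 6 single members in 8 bins of the macrophage minus monocyte marker score (C1q, C3, C3ar1 and C4b on log axes), with 1 line per age, and the share of cells in each bin in the last panel. C1q and C3ar1 are highest on the right and C3 on the left. The later ages hold more cells on the right.

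Dividing the 14110 monocyte-to-macrophage cells into 8 equal bins of the marker score showed these slopes in finer steps. At 4 months, summed C1q was 360, 765, 1590, 3225, 4640, 6193, 8847 and 13357 CPM from the most monocyte-like to the most macrophage-like bin. It ran from 473 to 11899 CPM at 12 months and from 622 to 12795 CPM at 20 months, so that in every library the first bin was close to the T-like level. C3 ran the other way, from 200 to 20.1 CPM, 225 to 33.0 CPM and 226 to 30.03 CPM. C3ar1 ran from 112 to 553 CPM, 115 to 480 CPM and 134 to 506 CPM. Cfb had its middle high, with 188, 378, 410, 464, 446, 471, 362 and 371 CPM at 4 months. C4b was highest in the last bin, with 17.1, 15.7 and 14.5 CPM, and its first bin held 3.54, 3.23 and 9.07 CPM.

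Among the macrophage-like cells, age ratios of the members were small. C3 at 12 months was the single member past 1.5-fold among the 8 past the level filter: 1.51-fold higher than at 4 months (log2 ratio 0.60, 0.39 to 0.81), from 270 and 678 counts. The shares past 1.5-fold at 12 months were 2.47% of all genes higher and 1.13% lower. This call was lost when no doublets were removed, when clusters replaced the gates and when cells were thinned to 2000 counts, although C3 was above its 4-month level in all 11 alternatives (log2 ratio 0.37 to 0.77). At 20 months C3 was 1.30-fold higher (0.38, 0.18 to 0.58). No member passed 1.5-fold in either direction at that age, where 1.43% of all genes were higher and 1.34% lower. The median log2 ratio of the 9 members was −0.03 at 12 months and 0.04 at 20 months, against −0.03 and −0.04 over all genes past the filter. Over the 8 members past the filter it was −0.05 and 0.000334.

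The other members of the macrophage-like class lay within smaller ranges. C5ar1 at 12 months was lower by a log2 ratio of −0.53 (−0.65 to −0.41), below 0 in all 11 alternatives, and stood at −0.15 at 20 months. Cfp was lower at both ages (−0.33 and −0.30), again in all 11 alternatives. Cfb was at −0.07 and −0.16, and C3ar1 at −0.18 and −0.04. Summed C1q was at −0.01 (−0.03 to −0.00) at 12 months and 0.13 (0.11 to 0.14) at 20 months. Both signs changed under at least 1 alternative, so no direction with age is given for summed C1q per macrophage-like cell.

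Monocyte-like cells and cells in between had no member past 1.5-fold among the 8 past the filter, at either age. The shares of all genes in monocyte-like cells were 2.57% higher and 0.898% lower at 12 months, and 1.36% and 1.02% at 20 months. In cells in between they were 2.19% and 0.841%, and 1.38% and 0.889%. Summed C1q in monocyte-like cells was at 0.06 at 12 months and 0.49 at 20 months, beside T-like cells at 0.33 and 0.77. C3 in monocyte-like cells was at 0.15 and 0.24 and in cells in between at 0.46 and 0.38. C5ar1 at 20 months was at 0.38 (0.27 to 0.49) in monocyte-like cells.

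Dendritic-like cells had 6 members past the filter. At 12 months 4 of them, the 3 C1q chains and C3ar1, were higher by 1.5-fold or more, against 2.92% of all genes. At 20 months the 3 C1q chains were, against 3.67%. No member was lower by that size, where 1.72% and 3.78% of all genes were. These 4 genes were highest in macrophage-like cells, and the summed macrophage markers of the dendritic-like cells were higher too (403, 668 and 657 CPM). In T-like cells of the same libraries the log2 ratio of summed C1q was 0.33 at 12 months and 0.77 at 20 months, beside 0.94 and 0.86 in dendritic-like cells. The log2 ratio of dendritic-like to T-like cells at 4, 12 and 20 months was 0.48, 1.102 and 0.59 for C1qa. It was 0.43, 0.97 and 0.42 for C1qb and 0.32, 1.15 and 0.72 for C1qc. C1qb at 20 months was thus higher by about the same factor in both, 1.68-fold in T-like and 1.67-fold in dendritic-like cells. C1qa and C1qc at 20 months, and all 3 chains at 12 months, were higher by a larger factor in dendritic-like cells. Whether these counts come from the dendritic-like cells was not tested.

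**Figure D3:**
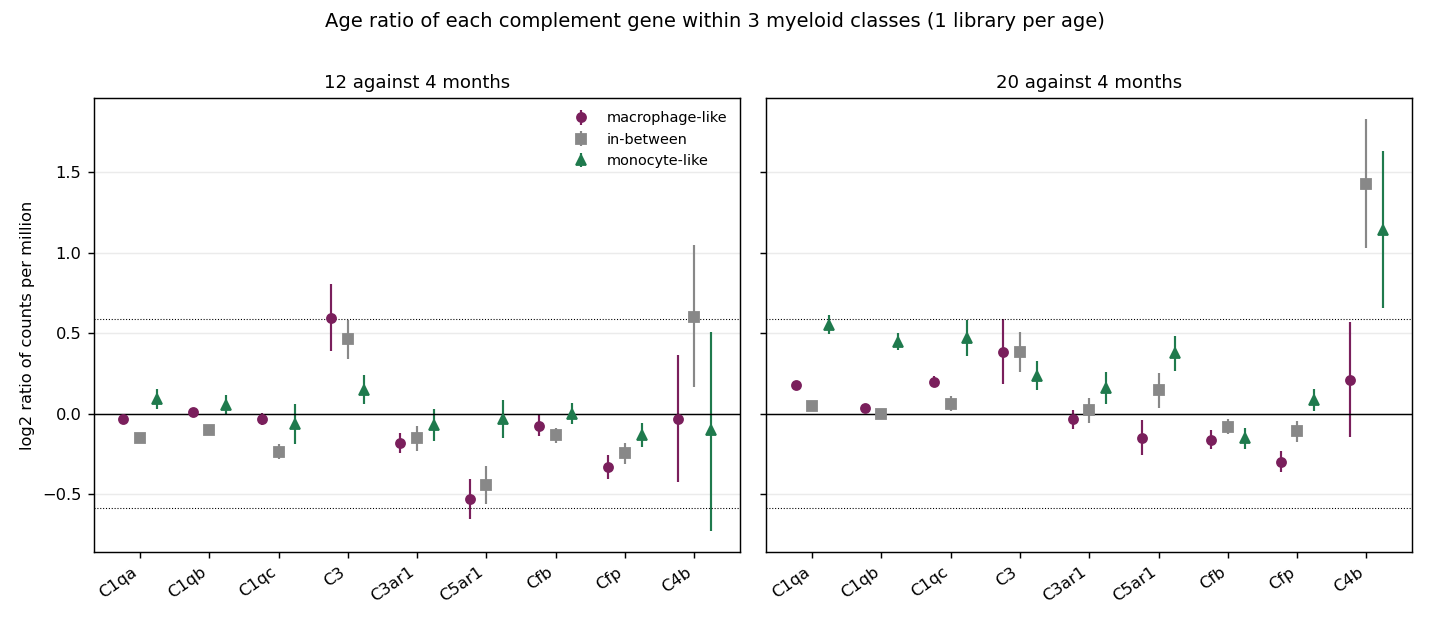
Log2 ratio of CPM at 12 months (left) and 20 months (right) against 4 months for each member in macrophage-like, in-between and monocyte-like cells, with 95% counting intervals. C3 lies above 0 in all 3 classes at both ages, Cfp lies below 0 in macrophage-like cells at both ages, and C4b is high at 20 months in monocyte-like and in-between cells.

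Members were also compared at matched marker scores. All bins of an age come from 1 library, so they are not replicates. C3 was above its 4-month level in 8 of 8 bins at 12 months (log2 ratio 0.14 to 0.73) and at 20 months (0.17 to 0.58), with 7 intervals above 0 at each age. C4b was above it in 7 of 8 bins at 20 months, 6 of them with an interval above 0, and in 3 of 8 at 12 months. At 12 months Cfp was lower in 7 bins with an interval below 0, C3ar1 in 6 and C5ar1 in 5. Cfb at 20 months was lower in all 8 bins, with 4 intervals below 0. Summed C1q was higher in 5 bins and lower in 3 at 20 months, and higher in 2 and lower in 6 at 12 months.

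Over all monocyte-to-macrophage cells together, C1q was higher at the later ages, beside a shift of the cells towards the macrophage end. The median marker score was −0.33, −0.02 and 0.19, and the last bin held 5.69%, 11.9% and 20.1% of the cells. Summed C1q was 3941 CPM at 4 months, 5169 CPM at 12 months and 6616 CPM at 20 months (log2 ratio 0.39 and 0.75). When the bins of each library were given their 4-month shares, it was 3643 and 4000 CPM (−0.11 and 0.02). With the bins drawn on the monocyte score alone, the ratios were −0.00 and 0.29, so the size of this reduction depended on the markers chosen. C3ar1 went from 0.12 and 0.43 to −0.19 and −0.03 with the 4-month shares. With bins on the monocyte score alone, C3ar1 was at −0.07 and 0.16.

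C3 and C4b did otherwise. C3 was at 0.04 and −0.11 with the cells as found and at 0.31 and 0.32 with 4-month shares. By the monocyte score alone, C3 was at 0.27 and 0.19. C4b at 20 months was at 1.07 as found, 0.93 with 4-month shares and 1.02 by the monocyte score alone. C5ar1 (−0.30 and 0.16, then −0.29 and 0.18), Cfb (−0.05 and −0.10, then −0.10 and −0.12) and Cfp (−0.21 and −0.09, then −0.21 and −0.07) moved little. The markers that set the score were themselves higher within macrophage-like cells at later ages: Apoe, which carries lipid, stood at 3798, 5057 and 5715 CPM and Trem2, a lipid-sensing receptor, at 101, 117 and 149 CPM. Age and marker score are therefore not independent in these libraries.

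**Figure D4:**
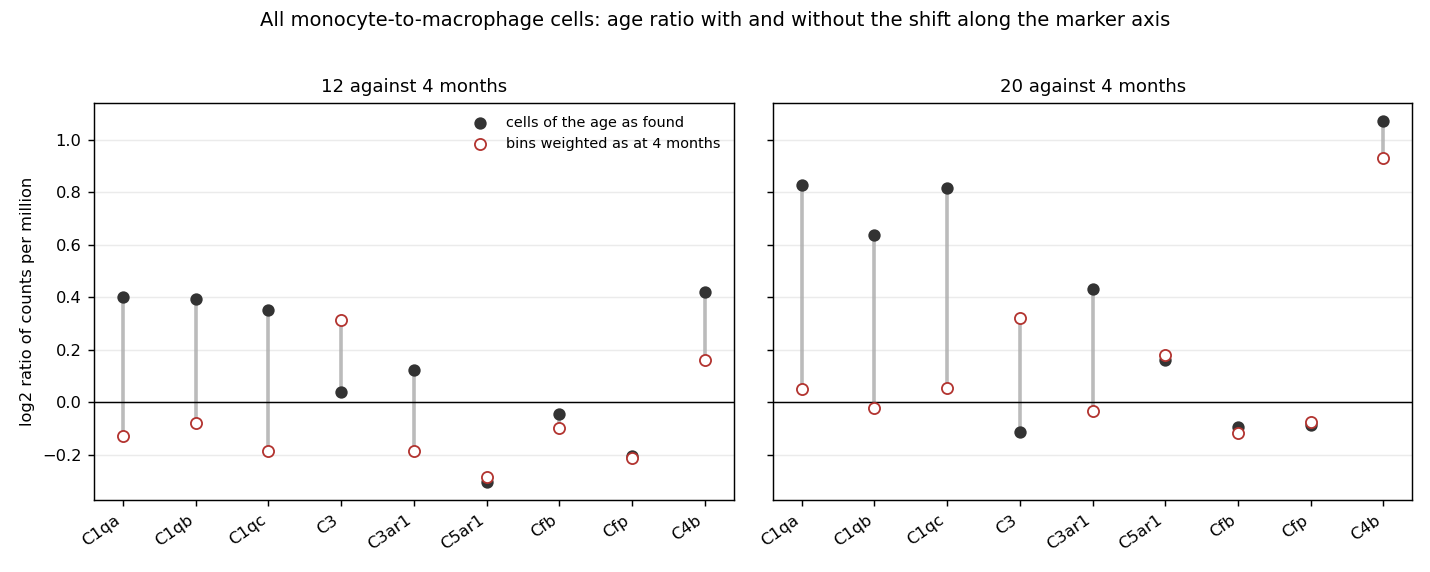
Log2 ratio of CPM against 4 months over all monocyte-to-macrophage cells for each member, with the cells as found in each library and with the 8 bins weighted to their 4-month shares. With fixed shares the C1q chains lie nearer 0 at both ages, as does C3ar1 at 20 months. C3ar1 at 12 months goes from 0.12 to −0.19. C3 goes up, and C4b at 20 months stays near 1.

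Among 38 other complement genes on a list, all in the files, those that reached 20 CPM in any of the 5 classes included Itgam, Itgax, Itgb2, Cr1l, Cd93, Lrp1 and Cd55. These are receptors and regulators. The C1r and C1s proteases, C2, the terminal components, Serping1, Vsig4 and Cfd were all below that level. Gm20547 overlaps C2 as well as Cfb on the same strand, so the division of reads is uncertain for C2 too. Itgam and Itgax, the alpha chains of complement receptors 3 and 4, differed in place. Itgam was at 130, 138 and 152 CPM in monocyte-like and 74.9, 64.2 and 77.4 CPM in macrophage-like cells. Itgax was at 56.3, 44.8 and 47.2 CPM in monocyte-like, 137, 110 and 111 CPM in macrophage-like and 105, 102 and 139 CPM in dendritic-like cells. In macrophage-like cells 6 genes of the list passed the filter, and none passed 1.5-fold at either age. In monocyte-like cells Cd93 stood at 22.2, 21.9 and 34.2 CPM, past 1.5-fold at 20 months and not at 12 months.

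The genes whose levels over 15 class sums (5 classes in 3 libraries) were most like those of a member were found among 4689 genes at 50 CPM or more, by Pearson correlation of log2(CPM + 1), as a description over classes that share libraries. For C1qa they were Ms4a7 (0.992), which is one of the macrophage markers used, Itga9 (0.987), Olfml3, Ntpcr and Gdf3. For C3 they were Ms4a8a (0.991), Dbi, Ninj1, Serpinb8 and Lyz2, the last being one of the markers used to gate the myeloid cells. For C3ar1 the first was Adgre1 (0.993), again a macrophage marker, and for C5ar1 Slc11a1 (0.996). For Cfb it was the overlapping Gm20547 (0.999), followed by Dok3. For Cfp it was Cd300a (0.998), and for C4b the marker Trem2 (0.973).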

How the data were processed

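CD45+ cells of 3 libraries, 1 per age, were measured by 3' single-cell RNA sequencing. The deposited values are unnormalized whole-number counts of genes in single cells, with 1 matrix per age. STAR 2.7.10a and GRCm38 are named in the submitters' processing notes, per the labels; how counts were made from reads is not given in the sources used here. Total counts per library were 110371225, 127850782 and 119873564 at 4, 12 and 20 months.

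Cells over 15% mitochondrial counts (2, 0 and 0) and the 6% of cells with the highest Scrublet doublet score (863, 879 and 881) were removed (scanpy 1.11.5). Each marker list was scored per cell as the mean of log2(1 + counts per 10000). Score limits were set after the data had been seen. Macrophage-like and monocyte-like cells lay 0.5 or more above or below the T-cell-corrected zero of the macrophage minus monocyte score. Counts were summed per class and library and scaled to counts-per-million (CPM) of that sum, with exact Poisson intervals. Ratios of CPM have exact conditional binomial intervals and shares of thinned cells Clopper-Pearson intervals, all at 95% (numpy 2.4.6, scipy 1.17.1, pandas 2.3.3). Count ratios within 1 sum use the same binomial method. Genes at 20 CPM or more in at least 1 of the sums compared entered the counts of genes past 1.5-fold (ages) or 2-fold (classes). All 9 members were named, other complement genes at 20 CPM or more in a class, and for likeness the 5 genes of highest correlation. The summing and calling steps were tested on simulated data.

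No test of age was possible with 1 library per age. The alternatives were all cells kept, clusters made without the members, a wider margin between the scores, TMM factors (edgeR 4.0.16), other scalings, thinning, a stricter mitochondrial limit, the T-like level subtracted and the top 10 cells left out. The clusters named macrophage took in cells below the gate limit, so they are not the same set of cells. Among them, clusters of 4048 and 4293 cells had mean scores of 0.10 and 0.35. Cells with shared barcodes left out, macrophage-like cells weighted to 4-month scores and Cfb counted with Gm20547 were added after seeing the data. The members and lists were chosen with earlier results of these data known. Genes were placed by identifier in GENCODE M21 (9 of 9 matched). Some results for other complement genes are not reported here.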

Additional observations from a re-analysis of the deposited data

How the results depend on the processing

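No paired analysis was possible because each age has 1 library. Summed C1q was higher in macrophage-like than in monocyte-like cells under all 10 alternatives at each age. At 4 months the log2 ratio was 3.65 with no doublets removed, 3.33 by clusters, 4.93 with the wider margin, 3.52 by TMM, 4.42 less the T-like level, 3.79 without the top 10 cells and 3.64 thinned. At 12 months it was 3.39, 4.36, 4.58, 3.77 and 3.66, and at 20 months 3.07, 4.16, 4.27, 3.45 and 3.35, by clusters, wider margin, less the T-like level, without the top 10 cells and thinned.

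Age ratios of summed C1q in macrophage-like cells had no stable sign. Of the single chains, C1qa at 20 months stayed above 0 in all 11 alternatives (0.0203 to 0.49), and C1qc in 10 of 11. At 12 months summed C1q was at 0.0644 by clusters and 0.0302 thinned, but −0.15 with the wider margin, −0.0285 less the T-like level and −0.0717 weighted to 4-month scores. At 20 months it was 0.42 by clusters, 0.19 by TMM, 0.15 without mitochondrial and ribosomal genes, 0.10 less the T-like level and 0.16 thinned, but −0.0345 with the wider margin and −0.00128 weighted. The median of the members at 20 months was 0.30, 0.10, 0.0628, 0.00275 and 0.0820 under the first 5 of these and −0.0906 and −0.0668 under the last pair. Single members changed sign at 12 months by clusters (C1qa 0.0648, C3ar1 0.0143), with the wider margin (Cfb 0.0109) and thinned (Cfb 0.00305). At 20 months they did so with the wider margin (C1qb −0.12, C1qc −0.00324), weighted (C1qb −0.0668) and by clusters (C5ar1 0.15). The median at 12 months crossed 0 by clusters (0.0340) and thinned (0.000492). Members whose interval included 0 also crossed it: at 12 months C1qb (−0.12 wider margin, −0.0369 weighted, −0.00566 less the T-like level), C1qc (0.0340 by clusters, 0.000492 thinned) and C4b (0.30 by clusters, 0.40 thinned, 0.0991 without the top 10 cells), and at 20 months C3ar1 (0.33 by clusters, 0.0293 by TMM) and C4b (−0.0390 wider margin). C3 at 20 months ranged from 0.08 to 0.59, above 0 in all 11 alternatives and past 1.5-fold in 1. The cause of these changes was not tested. Depth limits C4b most: in macrophage-like cells its age ratios rest on 90, 146 and 259 counts.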

Other observations

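Values follow for a group within the monocyte-to-macrophage cells and for regulators in NK-like and T-like cells. Nonclassical monocyte-like cells (158, 81 and 85 at 4, 12 and 20 months) were marked by Ace, Adgre4, Ear2, Treml4 and Cd36. They had summed C1q at 738, 617 and 698 CPM, C3 at 85.7, 118 and 78.7 CPM and Cfp at 84.7, 76.9 and 88.9 CPM. Their C5ar1 stood at 66.9, 97.4 and 144 CPM and their Cfb at 158, 184 and 210 CPM. In NK-like cells the membrane regulator Cd55 stood at 37.6, 39.1 and 33.0 CPM, above T-like cells at 13.7, 20.4 and 13.1 CPM. Cr1l, another membrane regulator, stood at 117, 114 and 111 CPM in NK-like and 86.9, 85.3 and 84.3 CPM in T-like cells.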
